A study of Lotus japonicus with 24 samples.

Results

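The genes described here are those whose description in the deposited expression table of *Lotus japonicus* names a cellulose synthase, xylan, a COBRA protein or a fasciclin domain, with xyloglucan and expansin genes left out. The rule took 157 of the 30243 genes in the table. Of these, 102 belong to the plant cell wall by their descriptions: 16 cellulose synthases, 3 cellulose synthase-interactive proteins, 17 cellulose synthase-like proteins, 12 genes of xylan synthesis and modification, 6 xylan-degrading enzymes, 18 COBRA proteins and 30 fasciclin-like arabinogalactan proteins. The other members came in through a word only: 54 aspartic proteases carry a Pfam domain called xylanase inhibitor, and 1 ribosomal protein gene was matched through the name of a bacterium. This division was made after the descriptions had been read. The 102 genes are called cell wall genes below, and the proteases are described apart at the end.

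RNAseq was carried out on shoots and roots of *Ljasn1-2* and WT plants under S and NS conditions, with 3 libraries in each of the 8 groups and 10 plants pooled per library. *Ljasn1-2* is a single line carrying the LORE1 retrotransposon in an exon of *LjASN1*, a gene for asparagine synthetase, in the Gifu background, and the study genotyped it for the absence of the insertions elsewhere in the genome that came with the line. WT is the ecotype Gifu. The groups, 2 genotypes in each case, are shoots S, shoots NS, roots S and roots NS: S plants were inoculated with *Mesorhizobium loti* and given no combined nitrogen, and NS plants were fed ammonium nitrate without the bacterium. Roots S include the nodules. The labels put all plants at day 40, sampled 4 h into the light period, but the methods of the study describe a younger harvest for NS than for S plants, so growth condition and plant age cannot be told apart in these data.

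Cellulose is made at the plasma membrane by complexes of cellulose synthase (CESA) proteins. In *Arabidopsis thaliana*, CESA1, CESA3 and CESA6 or its relatives CESA2, CESA5 and CESA9 serve the primary wall of growing cells, while CESA4, CESA7 and CESA8 serve the thick secondary wall of xylem and fibres. Cellulose synthase-interactive proteins link the complex to microtubules, and COBRA proteins are anchored wall proteins needed for ordered cellulose deposition. Xylan, built in the Golgi by IRX enzymes and decorated by GUX and GXM enzymes, coats secondary wall cellulose. Fasciclin-like arabinogalactan proteins (FLA) are wall glycoproteins, and *Arabidopsis* FLA11 and FLA12 are best known from secondary walls of the stem. Nodules are new organs with their own vascular strands, formed on the root. The names used below are those of the best database match in the deposited table (from *Arabidopsis* for 135 of the 157 members), so that several *Lotus* genes share a name and are told apart by their identifier.

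Values are FPKM (fragments per kilobase of gene, scaled by library), and differences are on the log2(FPKM + 1) scale, which understates changes of genes near or below 1 FPKM. The libraries held 37.5 to 66.8 M reads on genes (median 42.5 M). *LjASN1* (LotjaGi1g1v0118200) was between 3.76 and 118.9 FPKM in the 12 *Ljasn1-2* libraries, against 78.8 to 695 FPKM in the 12 WT libraries, and in each of the 4 tissues and conditions the genotypes did not overlap. Chlorophyll a-b binding genes (20 genes) summed to 2.508e+04 to 4.608e+04 FPKM in shoots and 108.9 to 466.9 FPKM in roots. The 4 leghemoglobin genes summed to 6592 to 1.502e+04 FPKM in roots S and to at most 1.03 FPKM in each library of the other groups. The tissue labels and the presence of nodules were thus seen in the expression of their marker genes.

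Of the 102 cell wall genes, 69 reached 1 FPKM in 3 or more libraries of the series, and 5 were at 0 in every library. By family, 13 of 16 cellulose synthases, all 3 interactive proteins, 11 of 17 cellulose synthase-like genes, 9 of 12 xylan synthesis genes, 6 of 6 xylan-degrading genes, 6 of 18 COBRA genes and 21 of 30 fasciclin genes passed. The group with the highest mean was a root group for 46 of these 69 genes, with 12 in roots S and 34 in roots NS, and a shoot group for 23, with 14 in shoots S and 9 in shoots NS.

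The primary wall type cellulose synthases were the most abundant of their family. In shoots the highest mean was that of CESA3 (LotjaGi3g1v0061000) at 86.3 FPKM, and in roots that of CESA2 (LotjaGi4g1v0406300) at 112 FPKM (12 libraries each). CESA1 (LotjaGi1g1v0385400) stood beside them, with 63.1 to 79.5 FPKM over the shoot libraries and 76.2 to 126 FPKM over the root libraries, which overlap. Another CESA2 gene (LotjaGi1g1v0314700) was far lower in shoots S, at 7.39, 7.601 and 7.801 FPKM in *Ljasn1-2* and 8.34, 7.82 and 9.002 FPKM in WT, than in roots S, at 20.3, 28.4 and 44.2 FPKM in *Ljasn1-2* and 18.4, 29.6 and 45.3 FPKM in WT.

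Of the secondary wall type genes, CESA4, CESA7 and CESA8 (LotjaGi6g1v0320400) moved as a set of 3. Another gene named CESA8 (LotjaGi4g1v0379000) did not share their pattern over the groups. Its Pearson r with LotjaGi6g1v0320400 was 0.07 over the 24 libraries, and 0.96 for the deviations from the group means. CESA4 (LotjaGi6g1v0244300, chromosome 6, 55695052 to 55701179 of assembly LjG1.1, minus strand) had 42.96, 44.7 and 43.8 FPKM in shoots S of *Ljasn1-2* and 51.9, 47.8 and 63.1 FPKM in shoots S of WT. In shoots NS it had 62.1, 58.6 and 53.4 FPKM in *Ljasn1-2* and 42.5, 48.3 and 53.5 FPKM in WT. The *Ljasn1-2* values thus lay below all WT values under S conditions, whereas under NS conditions the genotypes overlapped with the higher mean in *Ljasn1-2*. In roots S, CESA4 had 13.9, 17.7 and 27.9 FPKM in *Ljasn1-2* and 13.9, 12.9 and 34.6 FPKM in WT. In roots NS it had 30.3, 27.4 and 73.3 FPKM in *Ljasn1-2* and 30.04, 26.99 and 52.1 FPKM in WT, and the library of replicate 3 was the highest of its group in all 4 root groups. CESA7 (LotjaGi6g1v0201600) and CESA8 (LotjaGi6g1v0320400, chromosome 6, 63695878 to 63702605, plus strand) were likewise lowest in roots S, at lower levels, with group means of 13.1 to 42.1 FPKM for CESA7 and 8.74 to 36.7 FPKM for CESA8. The CESA7 gene model overlaps a model on the other strand, and whether the authors' counting used the strand is not given in the sources used here.

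**Figure D1:**
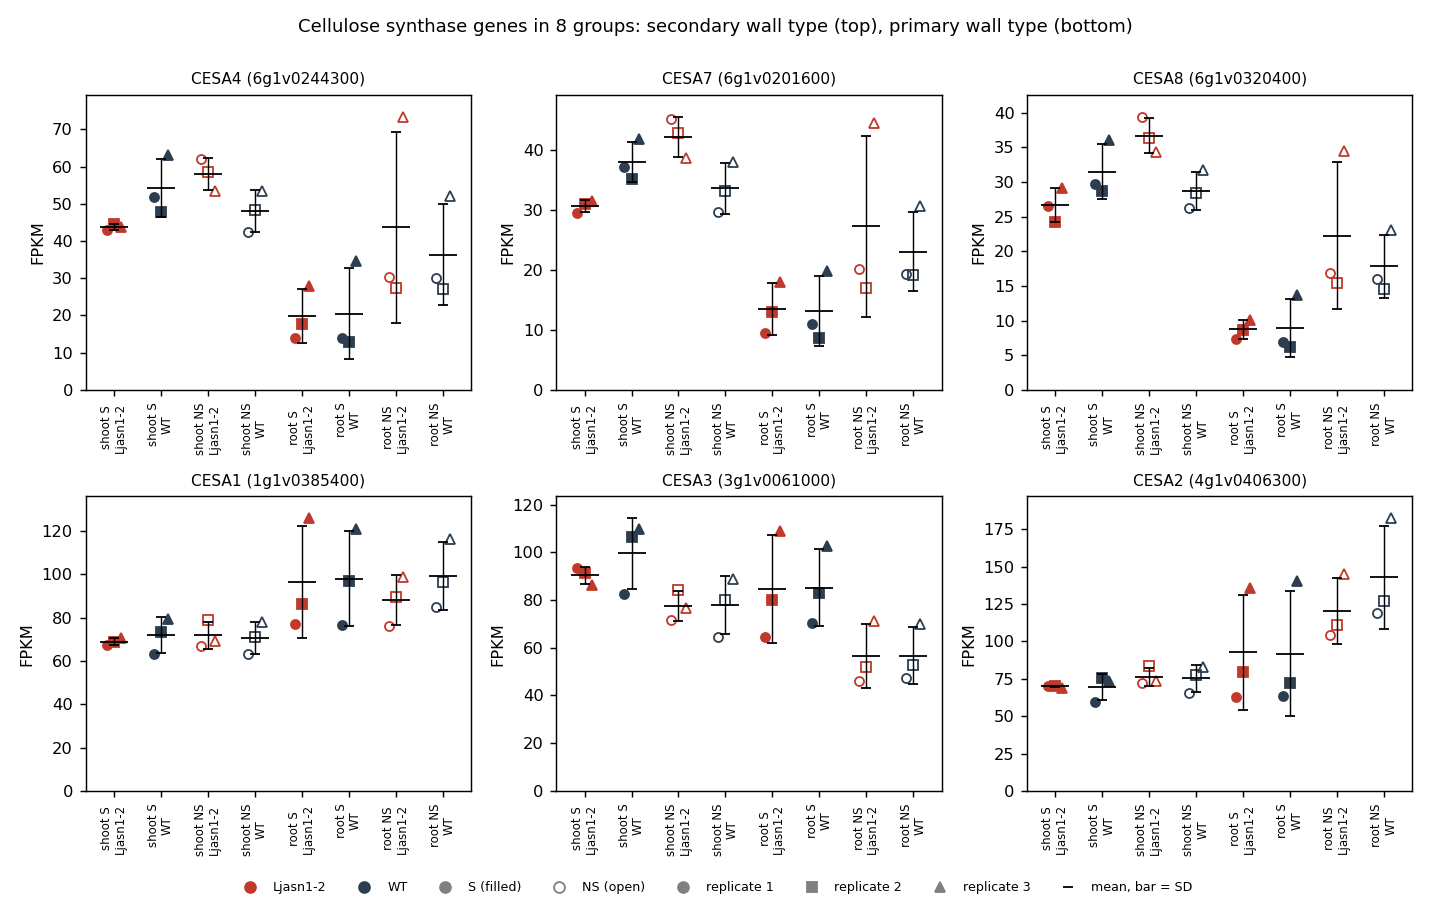
FPKM of 6 cellulose synthase genes (y axis, from 0) in the 8 groups (x axis); symbols are single libraries (red *Ljasn1-2*, dark WT, filled S, open NS, shape by replicate number), with the mean and SD of 3 libraries. CESA4, CESA7 and CESA8 (top) are lowest in roots S, and the triangle of replicate 3 tops each root group, whereas CESA1, CESA3 and CESA2 (bottom) are not lowest in roots S.

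Replicate 3 stood apart in roots for these genes. Of the 13 cellulose synthases that passed the filter, 12 had their highest value in replicate 3 in each of the 4 root groups, and so did all 3 interactive proteins. Among the 69 cell wall genes replicate 3 was the highest for 43 in roots S of *Ljasn1-2*, 48 in roots S of WT, 41 in roots NS of *Ljasn1-2* and 37 in roots NS of WT. For this reason the root comparisons below are also given with the replicate number as a block, since same-numbered root libraries deviated together.

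Cellulose synthase-like genes included the most tissue-bound members. A pair of genes named CSLH1 after a rice protein (CSLH proteins make mixed-linkage glucan in barley) lies side by side on chromosome 3, between 88457563 and 88475593, and reads may be shared between them where they are alike. LotjaGi3g1v0469100 was at 0 FPKM in the 12 shoot libraries, and it had 13.4, 8.17 and 9.01 FPKM in roots S of *Ljasn1-2* and 10.5, 7.41 and 7.79 FPKM in roots S of WT. In roots NS it was at 0 in the 3 *Ljasn1-2* libraries and at 0.0334, 0.00811 and 0 FPKM in WT. With 3532 reads in roots S of *Ljasn1-2* and 0 reads in roots NS, the mean was at least 1487-fold higher in roots S, taking 3 reads over the group as the floor. Its neighbour LotjaGi3g1v0469200 was a shoot gene, at 7.38 to 12.7 FPKM in *Ljasn1-2* and 10.2 to 12.6 FPKM in WT in shoots S, while in roots no library was above 0.0619 FPKM.

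Some other cellulose synthase-like genes also differed strongly between shoots and roots, whereas CSLG1 was abundant in both. CSLB4 (LotjaGi3g1v0186200) had 29.5, 28.8 and 23.1 FPKM in shoots S of *Ljasn1-2* and 25.5, 29.6 and 31.6 FPKM in shoots S of WT, against at most 1.77 FPKM in any root library. CSLE1 (LotjaGi6g1v0141800) was a root gene, with 36.2, 35.4 and 26.3 FPKM in roots S of *Ljasn1-2* and 36.2, 39.9 and 21.6 FPKM in roots S of WT, and at most 1.46 FPKM in shoots. Its model overlaps another on the opposite strand. CSLD2 (LotjaGi2g1v0450400) and CSLD3 (LotjaGi3g1v0542600), whose *Arabidopsis* counterparts serve the tip growth of root hairs, were likewise higher in roots in each of the 4 tissue comparisons. CSLG1 (LotjaGi3g1v0336500), of a group that in some legumes adds glucuronic acid to saponins, had the highest mean of the family in both shoots (41.8 FPKM) and roots (96.0 FPKM).

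**Figure D2:**
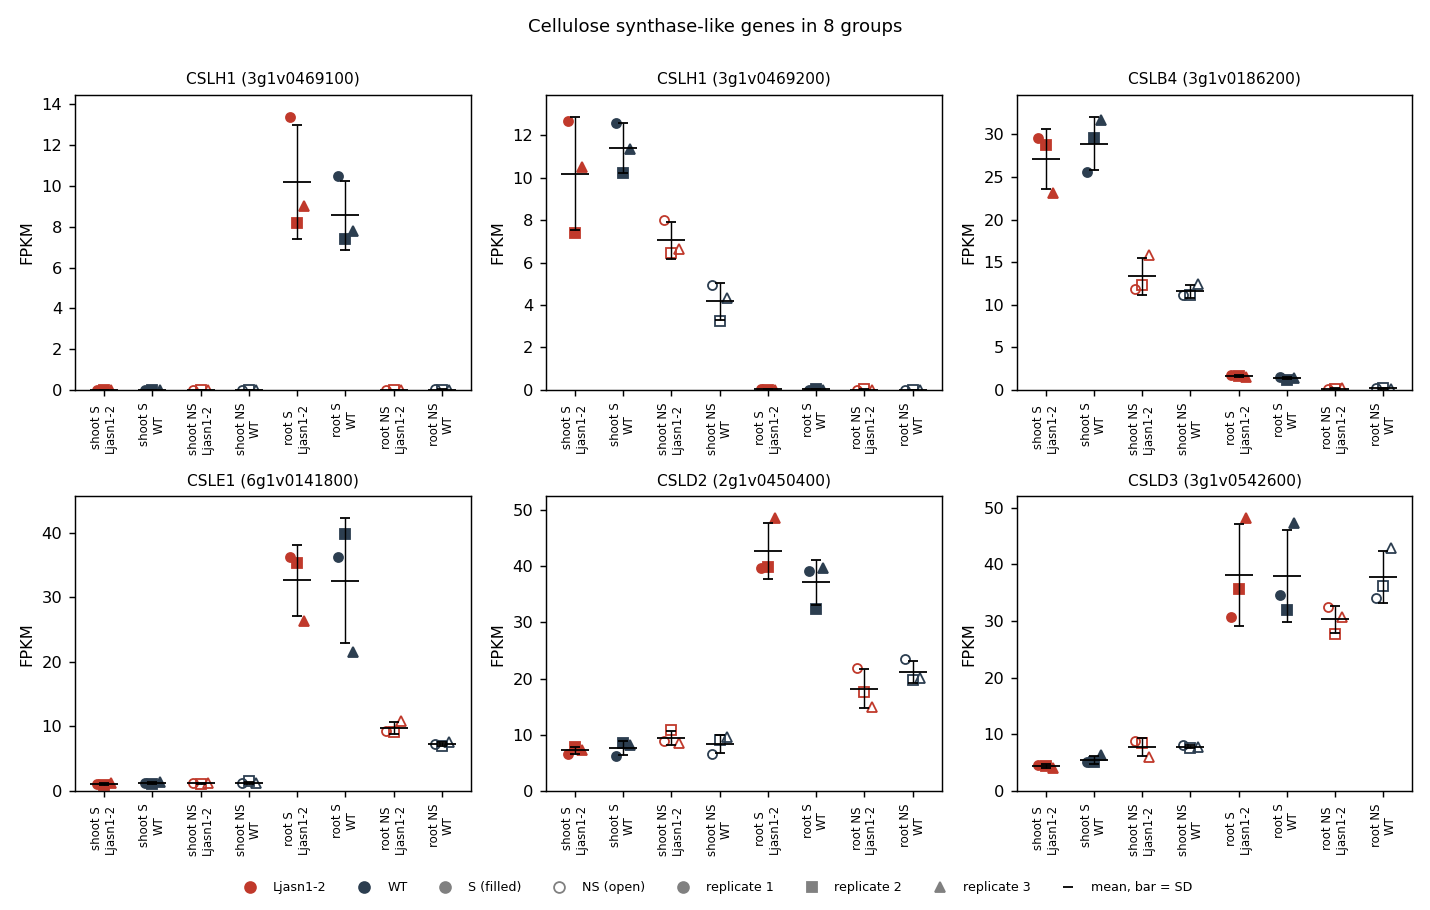
FPKM of 6 cellulose synthase-like genes (y axis, from 0) in the 8 groups (x axis); symbols, colours and bars as in the plot of cellulose synthases. The neighbours CSLH1 3g1v0469100 and 3g1v0469200 occupy different tissues, CSLB4 stays in shoots, and CSLE1, CSLD2 and CSLD3 are root genes of which CSLE1 and CSLD2 are higher in roots S than in roots NS.

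Between shoots and roots, 20 cell wall genes were higher and 21 lower in shoots among the 63 tested in S *Ljasn1-2* (limma with Benjamini-Hochberg adjustment, as in all tests across genes here), where 54.5% of all genes tested were called. In S WT 22 of 65 were higher and 17 lower (55.1% of all genes called), in NS *Ljasn1-2* 13 of 62 and 17 (52.7%), and in NS WT 14 of 64 and 27 (52.5%). Around the same share of genes was called over all genes, so these counts are not read as a result about the cell wall genes. In NS WT the count of 41 came to 24 without replicate 2 or without replicate 3 of shoots NS WT. Among xylan genes, XYN5 (LotjaGi3g1v0524400), an endoxylanase by its name, was bound to shoots, with 7.303 to 12.6 FPKM there and 0.0752 to 0.452 FPKM in roots. The xylanase gene named At4g33820 (LotjaGi5g1v0322100) was bound to roots, with at most 0.356 FPKM in shoots and 5.78 to 20.9 FPKM in roots.

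The tissue difference of some genes depended on the growth condition. CESA8 (LotjaGi6g1v0320400) was 3.05-fold higher in shoots than in roots in S *Ljasn1-2* (log2 fold change 1.51, SE 0.15, adjusted p = 3.29e-05) and 3.54-fold in S WT (1.78, SE 0.26, adjusted p = 0.000271). In NS plants its log2 fold change was 0.79 in *Ljasn1-2* (adjusted p = 0.0427) and 0.68 in WT (adjusted p = 0.0128). The difference between the growth conditions passed the test in WT, as it did for 19.1% of all genes (interaction 1.11, adjusted p = 0.0427) and not in *Ljasn1-2*, where 24.8% of all genes were called (0.73, adjusted p = 0.148). FLA11 (LotjaGi1g1v0691900) and COBL4 (LotjaGi2g1v0268900), a COBRA protein whose *Arabidopsis* counterpart acts in secondary walls, were also higher in shoots in all 4 tissue comparisons. FLA10 (LotjaGi1g1v0464000, chromosome 1, 96950554 to 96953631, minus strand) changed side, being lower in shoots than in roots in S plants (-1.04 in *Ljasn1-2* and -0.63 in WT) and higher in NS plants (0.80 and 0.80), each past the threshold.

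The comparison of S with NS roots asks how the wall genes stand in nodulated, nitrogen-free roots against roots fed ammonium nitrate. In *Ljasn1-2*, 8 cell wall genes rose and 13 fell among 59 tested, where 27.8% of all genes tested were called, 12.7% higher and 15.1% lower. In WT, 7 rose and 14 fell among 62 (24.1% of all genes, 11.6% higher and 12.5% lower). The median log2 fold change over the cell wall genes was -0.386 in *Ljasn1-2* and -0.453 in WT, against 0.014 and 0.008 over all genes tested. Of the cell wall genes tested, 35.6% were called in *Ljasn1-2* and 33.9% in WT. The 2 comparisons share no library but are not independent. Same-numbered root libraries of the 2 genotypes deviated together (mean r = 0.66 in roots S and 0.71 in roots NS). In bulk tissue such as this, fewer cells of a type and less RNA per cell cannot be told apart.

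Among cellulose synthase-like genes, CSLH1 LotjaGi3g1v0469100, CSLE1, CSLD2 and CSLB4 were higher in roots S in both genotypes. CSLH1 and CSLB4 reached the 1 FPKM needed for the test in roots S only, so that their being tested depended on the difference, and the number that rose in the family is not read as a result. CSLH1 (LotjaGi3g1v0469100), described above, had a log2 fold change of 3.46 in *Ljasn1-2* (adjusted p = 1.19e-05) and 3.22 in WT (adjusted p = 6.22e-06), values that depend on the pseudocount because the gene was at or near 0 in roots NS. CSLE1 was 3.34-fold higher in *Ljasn1-2* and 4.503-fold in WT, with 9.33, 9.104 and 10.9 FPKM in roots NS of *Ljasn1-2* and 7.22, 6.92 and 7.55 FPKM in roots NS of WT, below every S library given above. CSLD2 had 39.8, 39.9 and 48.6 FPKM in roots S against 21.9, 17.7 and 14.9 FPKM in roots NS of *Ljasn1-2* (log2 fold change 1.20, SE 0.19, adjusted p = 0.00288), and in WT 39.2, 32.5 and 39.7 against 23.5, 19.8 and 20.2 FPKM (0.78, SE 0.15, adjusted p = 0.00855, and 0.0501 without replicate 2 of roots NS WT). CSLB4, under 1 FPKM in roots NS, rose by 1.22 in *Ljasn1-2* and 1.00 in WT. CSLD3 did not follow CSLD2: its roots S and roots NS values overlapped in both genotypes.

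Outside that family, 2 fasciclin genes and a COBRA gene rose in both genotypes. FLA10 had 160.1, 151 and 162 FPKM in roots S against 53.8, 52.7 and 56.3 FPKM in roots NS of *Ljasn1-2* (1.52, SE 0.16, adjusted p = 0.000423). In WT it had 116, 125 and 161 FPKM in roots S against 56.6, 56.3 and 52.8 FPKM in roots NS (1.25, SE 0.18, adjusted p = 0.00209). No S library overlapped an NS library, and FLA10 was the most abundant of the called fasciclin genes in roots S. FLA2 (LotjaGi1g1v0005100) was 2.802-fold higher in *Ljasn1-2* and 2.87-fold in WT, and its gene model overlaps another FLA2 model on the other strand. COBL1 (LotjaGi2g1v0268800) rose by 0.70 in *Ljasn1-2* and 0.70 in WT, at levels of 2.31 to 3.15 FPKM in roots S and 1.03 to 1.66 FPKM in roots NS. COBL7 (LotjaGi4g1v0336800), the most abundant COBRA gene, rose in *Ljasn1-2* (0.82, adjusted p = 0.0128) and had 0.46 with an adjusted p = 0.0631 in WT, while its namesake LotjaGi6g1v0255200 fell in both, with 2.54, 2.49 and 2.95 FPKM in roots S against 7.99, 7.22 and 5.59 FPKM in roots NS of *Ljasn1-2*.

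**Figure D3:**
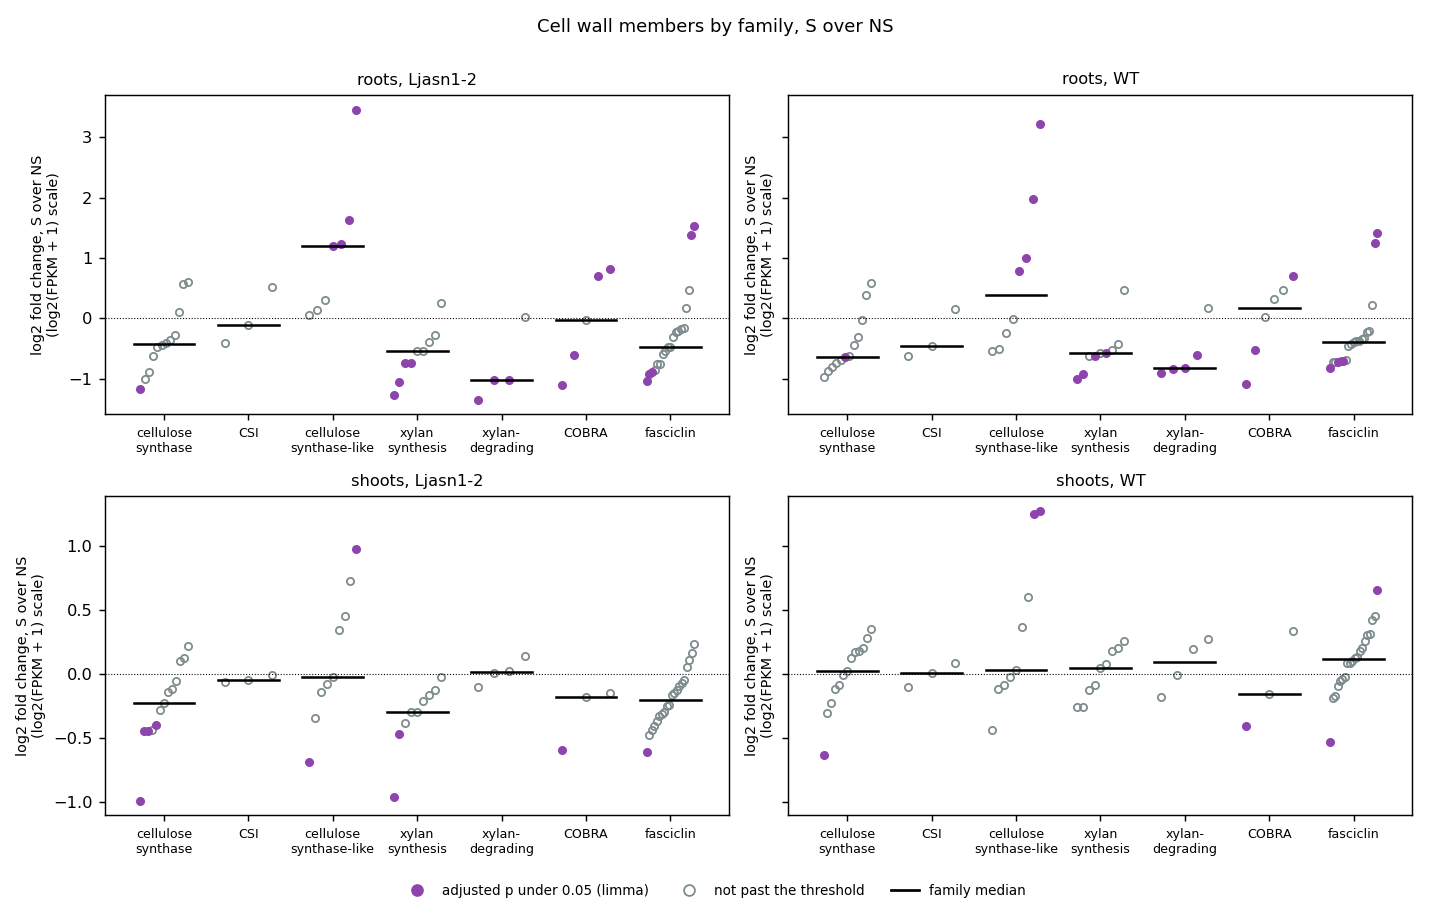
Log2 fold change of S over NS (y axis, log2(FPKM + 1) scale) for each cell wall gene tested, by family (x axis), in roots (top) and shoots (bottom) of *Ljasn1-2* (left) and WT (right); filled points have an adjusted p under 0.05 (limma) and bars are family medians. In roots the xylan and cellulose synthase medians lie below 0 in both genotypes while the called cellulose synthase-like genes lie above it, and the vertical scale of the shoot panels is smaller.

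Xylan genes, of synthesis and of degradation, made up 7 of the 13 that fell in *Ljasn1-2* and 8 of the 14 in WT. Of 9 xylan synthesis genes, 4 fell and none rose in each genotype, with medians of -0.549 in *Ljasn1-2* and -0.581 in WT. IRX7 (LotjaGi3g1v0485500), whose *Arabidopsis* counterpart builds the reducing end of xylan, had 2.57, 3.18 and 6.24 FPKM in roots S against 10.6, 8.71 and 12.4 FPKM in roots NS of *Ljasn1-2*, and 3.86, 4.07 and 6.33 against 9.23, 9.35 and 12.7 FPKM in WT (adjusted p = 0.012 in *Ljasn1-2*, 0.0603 without replicate 2 of roots S *Ljasn1-2*, and 0.011 in WT). The other IRX7 gene (LotjaGi3g1v0168500) fell by 1.05 in *Ljasn1-2* and by 0.93 in WT on the log2 scale, and GXM3 (LotjaGi3g1v0336000), the methyltransferase of xylan side groups, by 0.74 and 0.62. GUX2 (LotjaGi5g1v0028600), which adds glucuronic acid to xylan, fell in *Ljasn1-2* (-0.74, adjusted p = 0.0139) and had -0.53 with an adjusted p = 0.0878 in WT, and GUX3 (LotjaGi1g1v0169400) fell in WT (-0.57). The summed level of the family was 47.7 to 52.7 FPKM in roots S against 68.2 to 86.2 FPKM in roots NS of *Ljasn1-2*, without overlap, and 51.6 to 68.4 against 73.1 to 91.0 FPKM in WT. Xylan-degrading genes fell as well, 3 of 4 in *Ljasn1-2* and 4 of 5 in WT, where 15.1% and 12.5% of all genes tested fell. XYN4 (LotjaGi5g1v0322000) was tested in WT only, as it did not reach 1 FPKM in 3 root libraries of *Ljasn1-2*. The WT counts, also that of 8 of 14, may thus rest in part on the filter. At4g33820 had 5.78, 6.15 and 8.51 FPKM in roots S against 18.5, 20.9 and 16.96 FPKM in roots NS of *Ljasn1-2*, and 7.73, 9.47 and 7.85 against 14.02, 17.6 and 15.5 FPKM in WT.

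CESA4, CESA7 and CESA8 (LotjaGi6g1v0320400) were lower in roots S in each same-numbered pair, but their replicates spread widely. CESA8 (LotjaGi6g1v0320400) had 7.38, 8.69 and 10.1 FPKM in roots S against 16.8, 15.4 and 34.5 FPKM in roots NS of *Ljasn1-2* (-1.17, SE 0.30, adjusted p = 0.0232, and 0.000875 with the replicate block). Without replicate 1 or replicate 2 of roots S *Ljasn1-2* its adjusted p was 0.0841 or 0.0835. In WT it had 6.87, 6.14 and 13.7 against 16.03, 14.5 and 23.03 FPKM (-0.98, SE 0.30, adjusted p = 0.051, and 0.00103 with the block). CESA4 and CESA7 did not pass without the block (adjusted p = 0.105 to 0.164 over the 2 genes and 2 genotypes) and passed with it (0.000975 to 0.00327), with log2 fold changes of -0.81 to -1.01. CESA3 (LotjaGi3g1v0061000) went the other way, with 0.56 in *Ljasn1-2* (adjusted p = 0.146, 0.00227 with the block) and 0.58 in WT (0.0928, 0.00154 with the block). Among fasciclin genes, FLA11 (LotjaGi1g1v0691900) and FLA12 (LotjaGi2g1v0361400_LC) fell in both genotypes, FLA11 with 43.6, 35.7 and 27.2 FPKM in roots S against 70.04, 60.1 and 67.3 FPKM in roots NS of *Ljasn1-2*.

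With the replicate block, the cell wall genes called were 38 in *Ljasn1-2* (12 higher, 26 lower) and 49 in WT (12 higher, 37 lower), where the block called 51.9% and 48.1% of all genes tested. The count of 21 in *Ljasn1-2* came to 9 without replicate 2 of roots S *Ljasn1-2*. In WT the count of 21 came to 9 without replicate 1 of roots S WT, to 11 without replicate 2 of roots S WT or without replicate 2 of roots NS WT, and to 40 without replicate 3 of roots S WT, the library with the high cellulose synthase values. Leghemoglobin genes were at 6592 FPKM or more in roots S and at most 1.03 FPKM in roots NS, and the 5 casparian strip genes, markers of root endodermis, summed to 37.6 to 59.3 FPKM in roots S against 77.4 to 182.7 FPKM in roots NS. The part of this different tissue make-up in the differences above was not tested.

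In shoots, S plants differed from NS plants in fewer cell wall genes. In *Ljasn1-2*, 1 gene rose and 9 fell among 61 tested (11.9% of all genes called, 6.05% higher and 5.81% lower), and 47 of the 61 lay below 0. In WT, 3 rose and 3 fell among 61 (6.18% of all genes called, 3.43% higher and 2.75% lower), and 26 of the 61 lay below 0. CSLB4 rose in both genotypes, with 29.5, 28.8 and 23.1 FPKM in shoots S against 11.9, 12.4 and 15.8 FPKM in shoots NS of *Ljasn1-2* and 25.5, 29.6 and 31.6 against 11.1, 11.1 and 12.5 FPKM in WT (adjusted p = 0.00233 and 0.00124). CESA2 (LotjaGi1g1v0314700) fell in both, with 7.39, 7.601 and 7.801 FPKM in shoots S against 16.01, 19.3 and 13.4 FPKM in shoots NS of *Ljasn1-2* and 8.34, 7.82 and 9.002 against 12.4, 13.1 and 15.3 FPKM in WT (0.00154 and 0.0175). FLA18 (LotjaGi3g1v0185000) and COBL7 (LotjaGi4g1v0336800) also fell in both genotypes, by 0.61 and 0.59 on the log2 scale in *Ljasn1-2* and by 0.53 and 0.41 in WT. In WT the calls of CESA2, FLA18 and COBL7 were lost with single libraries left out: without replicate 2 of shoots NS WT their adjusted p was 0.0738, 0.13 and 0.186, and without replicate 2 of shoots S WT 0.0851, 0.0997 and 0.163. MUCI21 (LotjaGi1g1v0671400) fell in *Ljasn1-2*, with 1.46, 2.34 and 1.81 FPKM in shoots S against 4.32, 4.99 and 4.37 FPKM in shoots NS (adjusted p = 0.00185, and 0.0542 in a fit over all 24 libraries), as did CSLD3 (-0.68, adjusted p = 0.0134, 0.0621 without replicate 2 of shoots NS *Ljasn1-2* and 0.0702 without replicate 3 of shoots S *Ljasn1-2*).

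The secondary wall genes CESA4, CESA7, CESA8 and GUX2 fell in shoots S of *Ljasn1-2* (log2 fold changes -0.40, -0.44, -0.45 and -0.47, adjusted p = 0.0491, 0.0296, 0.0357 and 0.0152). In WT they did not pass, and the difference between the genotypes is taken up with the interaction below. CSLH1 (LotjaGi3g1v0469200) rose in WT, with 12.6, 10.2 and 11.4 FPKM in shoots S against 4.95, 3.23 and 4.34 FPKM in shoots NS (adjusted p = 0.00282), and had 12.7, 7.38 and 10.5 against 8.03, 6.47 and 6.64 FPKM in *Ljasn1-2* (adjusted p = 0.142). FLA19 (LotjaGi6g1v0357300) also rose in WT, with 1.199, 1.62 and 1.25 FPKM in shoots S against 0.354, 0.558 and 0.579 FPKM in shoots NS (adjusted p = 0.0233, 0.0809 without replicate 2 and 0.0512 without replicate 3 of shoots NS WT). FLA19 reached the 1 FPKM needed for the test in shoots S only, so that its being tested depended on the difference. The number of genes that rose in WT includes it and is not read as a result. The counts moved with single libraries. In *Ljasn1-2* the 10 calls came to 4 without replicate 2 of shoots NS or replicate 3 of shoots S and to 5 without replicate 1 of shoots S. In WT the 6 calls came to 2 or 3 without replicate 2 or 3 of shoots NS or any 1 replicate of shoots S, and to 16 (11 higher, 5 lower) with the replicate block, under which 23.1% of all genes were called.

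The comparison of *Ljasn1-2* with WT was the one the study was made for. No cell wall gene and no other member passed the threshold in any of the 4 tissues and conditions with limma on log2(FPKM + 1), nor with limma-voom on the restored reads. Over all genes, 0.106% of those tested were called in shoots S, 0.433% in shoots NS, 0.0308% in roots S and 0.0433% in roots NS. The study used another test, DESeq2, and did call members between the genotypes in shoots S and in shoots NS. Its list for shoots S includes MUCI21 (LotjaGi2g1v0298300), GXM3 (LotjaGi3g1v0336000), CESA8 (LotjaGi4g1v0379000) and FLA12 (LotjaGi4g1v0380600). It also includes the FLA11 genes LotjaGi1g1v0691900, LotjaGi2g1v0361600, LotjaGi2g1v0361700 and LotjaGi4g1v0380700. Its list for shoots NS includes CSLH1 (LotjaGi3g1v0469200). Xylan and cell wall terms were reported as enriched in shoots S. What stood out was the direction in shoots S. There 52 of 61 cell wall genes lay below 0, and their median was -0.179 on the log2 scale, against 8212 of 16010 and -0.004 over all genes tested. The 3 *Ljasn1-2* libraries were all below the 3 WT libraries for 23 of the 61 and all above them for 0, where 6.47% of all genes were wholly lower and 5.03% wholly higher. An unadjusted p under 0.05 was found for 23 of the 61 cell wall genes, against 1066 of 16010 genes.

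Fasciclin genes made up most of the cell wall genes wholly lower in *Ljasn1-2* in shoots S, but not most of those below 0. In shoots S, 19 of 20 fasciclin genes were below WT with a median of -0.334, and 14 of the 20 did not overlap. FLA11 (LotjaGi4g1v0380700) had 46.6, 51.9 and 44.4 FPKM in *Ljasn1-2*, against 108, 61.98 and 97.5 FPKM in WT (log2 fold change -0.86, SE 0.18, adjusted p = 0.207). FLA11 (LotjaGi2g1v0361600) had 37.4, 47.3 and 39.5 FPKM against 79.7, 50.1 and 70.4 FPKM in WT, and FLA12 (LotjaGi4g1v0380600) 27.97, 28.9 and 29.3 FPKM against 57.9, 33.3 and 50.02 FPKM in WT. The most abundant of them, FLA11 (LotjaGi1g1v0691900, chromosome 1, 125999790 to 126001416, plus strand), had 112, 104 and 113 FPKM against 203, 130.2 and 156 FPKM in WT. In each of these genes the *Ljasn1-2* libraries lay close together, and replicate 2 of WT was the WT library nearest to them. FLA12 (LotjaGi6g1v0318900_LC) had 42.1, 42.6 and 44.7 FPKM against 88.02, 47.6 and 67.8 FPKM in WT, and FLA11 (LotjaGi2g1v0361800_LC) 6.17, 6.31 and 5.97 FPKM against 13.4, 8.37 and 12.3 FPKM in WT, in the same order. Summed over the family, fasciclin genes reached 661.7 to 705.9 FPKM in *Ljasn1-2* against 777 to 1069 FPKM in WT. Because 5 of these genes stand side by side on chromosome 2 (85893888 to 85920769) and 2 on chromosome 4 (75972977 to 75985953), near-identical copies may share reads, and their values are not independent of each other.

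**Figure D4:**
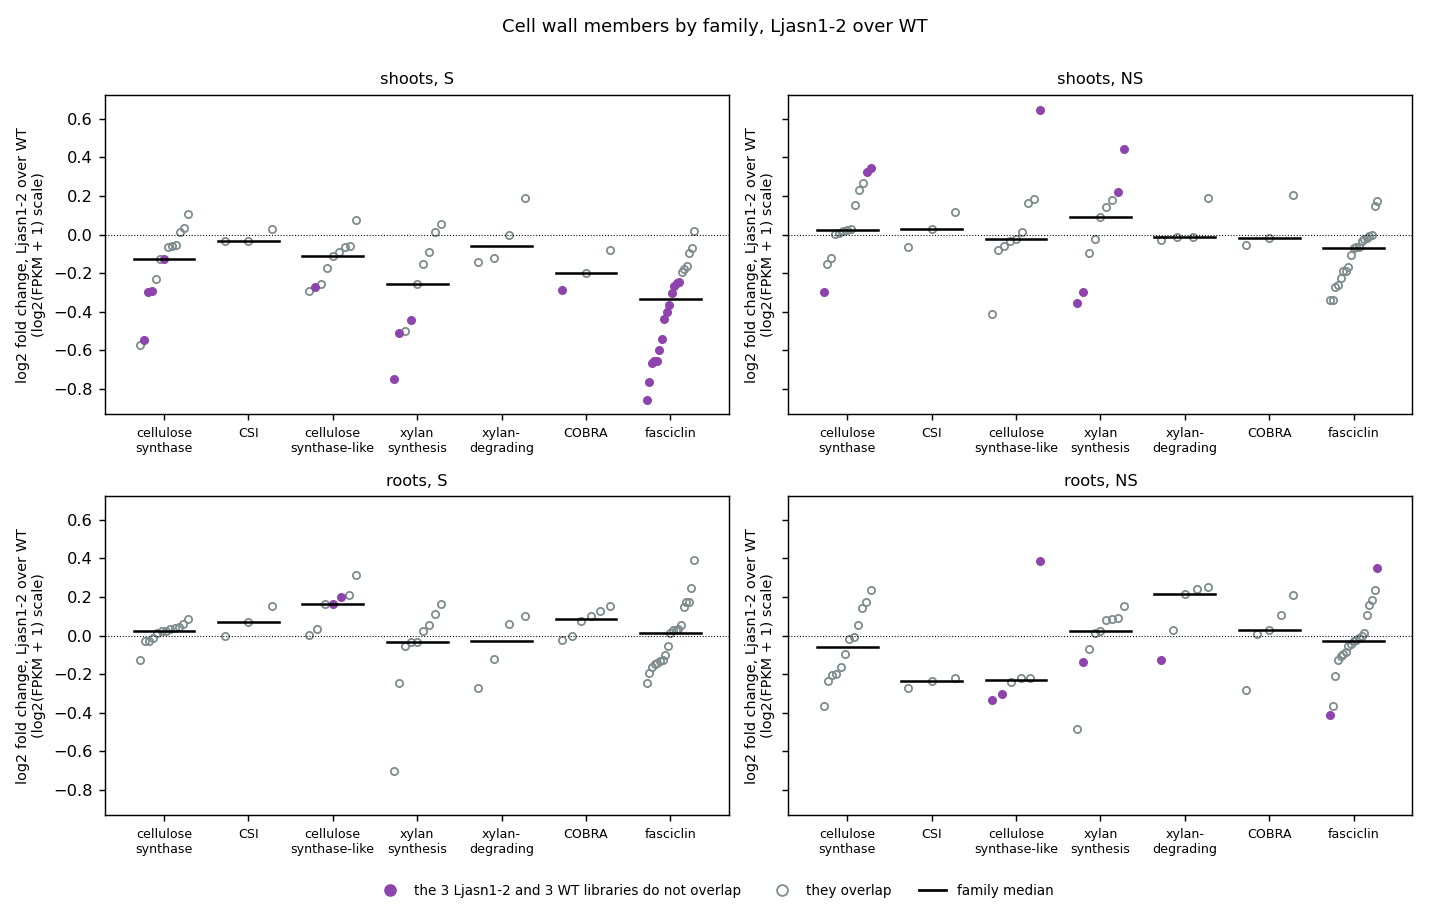
Log2 fold change of *Ljasn1-2* over WT (y axis, log2(FPKM + 1) scale) for each cell wall gene tested, by family (x axis), in shoots (top) and roots (bottom) under S (left) and NS (right) conditions; filled points mark genes whose 3 *Ljasn1-2* and 3 WT libraries do not overlap, and bars are family medians. In shoots S the points lie mostly below 0, with the fasciclin median at -0.334, against -0.069 to 0.016 in the other panels.

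Xylan synthesis genes were next in shoots S, 7 of 9 below WT with a median of -0.256. MUCI21 (LotjaGi2g1v0298300, chromosome 2, 77297379 to 77299280, plus strand), whose *Arabidopsis* counterpart adds xylose branches to the xylan of seed mucilage, had 1.27, 1.39 and 1.15 FPKM in *Ljasn1-2* against 3.43, 2.45 and 2.61 FPKM in WT. It had the smallest unadjusted p of the cell wall genes, 0.000155 (log2 fold change -0.75, SE 0.13, adjusted p = 0.0993). GXM3 had 22.3, 20.8 and 24.5 FPKM against 34.6, 30.6 and 32.3 FPKM in WT (-0.51, adjusted p = 0.191), and GUX2 5.38, 5.197 and 5.57 FPKM against 7.07, 7.51 and 8.54 FPKM in WT (-0.45, adjusted p = 0.277). Neither gene overlapped between the genotypes. The family summed to 59.1 to 65.4 FPKM in *Ljasn1-2* and to 75.9 to 82.3 FPKM in WT. Of the 13 cellulose synthases, 10 were below WT with a median of -0.125, and the 4 wholly below WT were CESA2 (LotjaGi1g1v0314700), CESA4, CESA7 and another gene named CESA8. This CESA8 (LotjaGi4g1v0379000) had 6.800, 7.57 and 6.29 FPKM against 8.896, 9.64 and 13.4 FPKM in WT, and CESA4 and CESA7 had log2 fold changes of -0.29 and -0.30.

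**Figure D5:**
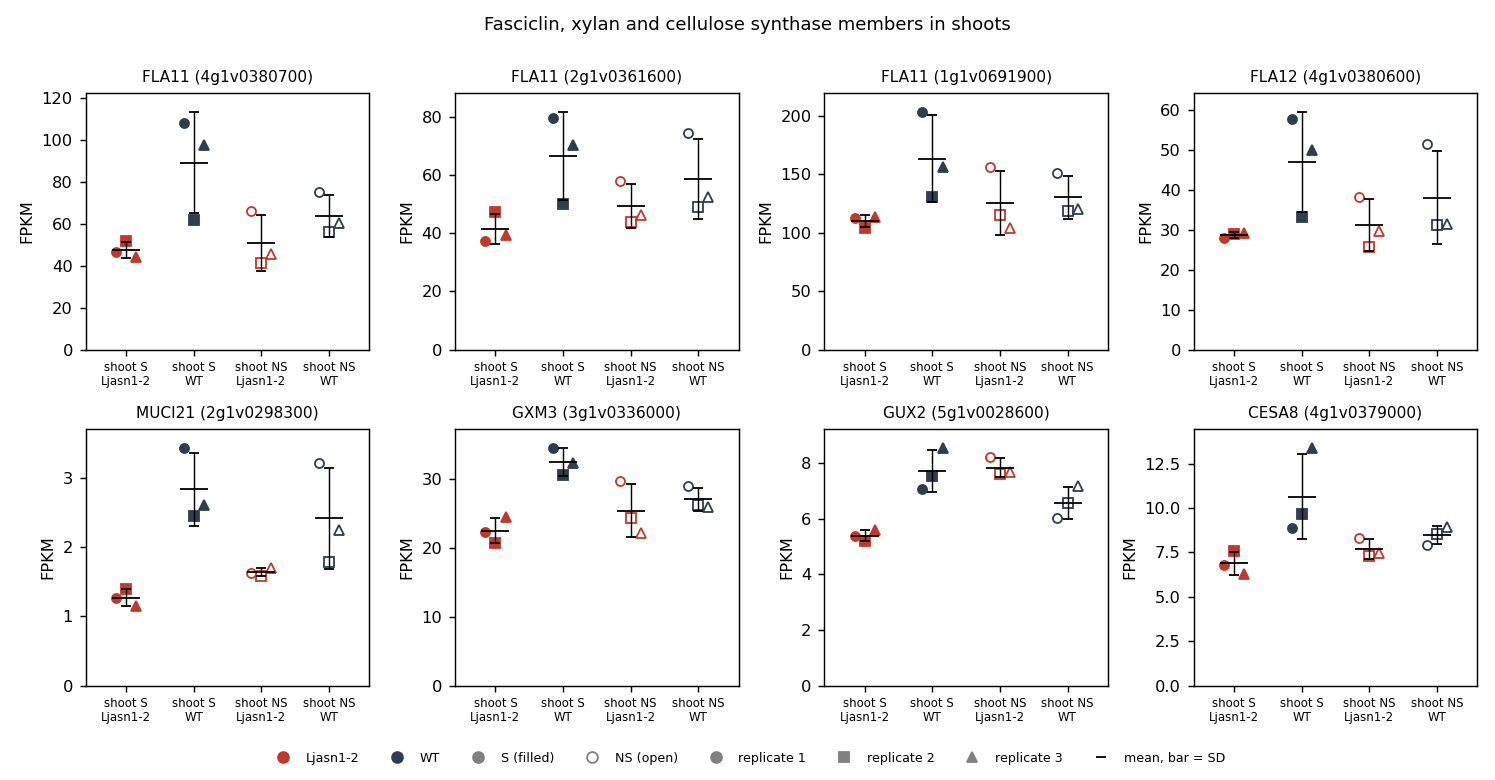
FPKM of 4 fasciclin genes (top) and of MUCI21, GXM3, GUX2 and CESA8 (bottom) in the 4 shoot groups (y axis from 0); symbols, colours and bars as in the plot of cellulose synthases. In shoots S the red *Ljasn1-2* points lie below all dark WT points in each panel, and in shoots NS the genotypes overlap in 6 of the 8 panels, with MUCI21 still lower and GUX2 higher in *Ljasn1-2*.

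Leaving out replicate 2 of shoots S WT gave 3 calls, all fasciclin genes lower in *Ljasn1-2* (FLA11 LotjaGi4g1v0380700, FLA11 LotjaGi2g1v0361800_LC and FLA12 LotjaGi4g1v0380600), and leaving out any other library gave 0. Over the 6 libraries left out in turn, 49 to 55 cell wall genes and 19 to 20 fasciclin genes were below 0, with fasciclin medians of -0.375 to -0.286.

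In shoots NS the cell wall genes lay near an even split, as 35 of 60 cell wall genes were below 0 (median -0.017), 5 were wholly higher and 3 wholly lower in *Ljasn1-2* (5.36% and 5.66% of all genes), and 5 had an unadjusted p under 0.05. Fasciclin genes were again mostly below WT, 17 of 19, but with a median of -0.069 and no gene without overlap, and leaving out libraries moved that count between 8 and 16. CESA7 had 45.1, 42.7 and 38.6 FPKM in *Ljasn1-2* against 29.6, 33.2 and 38.01 FPKM in WT, and CESA8 (LotjaGi6g1v0320400) 39.4, 36.3 and 34.4 FPKM against 26.2, 28.3 and 31.7 FPKM, higher in *Ljasn1-2* without overlap though with adjusted p = 0.939 and 0.717. CSLH1 (LotjaGi3g1v0469200) had 8.03, 6.47 and 6.64 FPKM in *Ljasn1-2* against 4.95, 3.23 and 4.34 FPKM in WT (0.65, SE 0.15, adjusted p = 0.284). With the replicate number as a block it passed (adjusted p = 0.0173), the 1 member that did, where the block called 1.72% of all genes.

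Whether the genotype difference in shoots depended on the growth condition was tested by the interaction. No member passed with limma or limma-voom (0.216% of all genes did), and 10 of 61 cell wall genes had an unadjusted p under 0.05, against 696 of 16650 genes. The values were negative for 55 of 61 cell wall genes (median -0.200), against 8046 of 16650 genes (median 0.007), that is, the difference of *Ljasn1-2* from WT was lower under S than under NS conditions, including 20 of 20 fasciclin genes (median -0.329) and 9 of 9 xylan synthesis genes (median -0.297). The smallest p was that of GUX2 (interaction -0.67, SE 0.14, unadjusted p = 0.000316, adjusted p = 0.103 with limma), with 8.22, 7.59 and 7.65 FPKM in shoots NS of *Ljasn1-2* against 6.004, 6.55 and 7.16 FPKM in WT. For CESA4, CESA7 and CESA8 the interaction was -0.56, -0.62 and -0.57 (adjusted p = 0.61, 0.325 and 0.503). The shoots S libraries enter this interaction and the comparison above alike, so the 2 counts are not separate evidence. Between tissues under S conditions, the genotype difference was lower in shoots than in roots for 58 of 66 cell wall genes (median -0.229), against 9397 of 17987 genes (median -0.010), again with 0 calls by limma or limma-voom (0.0334% of all genes were called by limma) and 3 cell wall genes with an unadjusted p under 0.05, against 568 of all genes tested.

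In roots the cell wall genes showed no shared direction between the genotypes. In roots S, 23 of 60 cell wall genes were below 0 (median 0.030), 2 were wholly higher and 0 wholly lower in *Ljasn1-2* (3.10% and 3.66% of all genes), and none had an unadjusted p under 0.05. Leaving out single libraries moved the count below 0 between 11 and 38, so that even its direction rested on single libraries. In roots NS, 34 of 59 were below 0 (median -0.025, with 24 to 43 below 0 when libraries were left out), 2 were wholly higher and 5 wholly lower (5.53% and 4.74% of all genes), and 4 had an unadjusted p under 0.05. With the replicate block, which called 4.47% of all genes in roots NS, 2 cell wall genes passed. FLA1 (LotjaGi6g1v0142700) had 25.5, 24.03 and 26.4 FPKM in *Ljasn1-2* against 35.7, 33.7 and 32.6 FPKM in WT (-0.41, adjusted p = 0.711, 0.0311 with the block), and CSLE1 9.33, 9.104 and 10.9 FPKM against 7.22, 6.92 and 7.55 FPKM (0.39, adjusted p = 0.726, 0.0417 with the block).

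Other cell wall genes, which the rule did not take, were read by the same tests from lists made of words in the descriptions. In shoots S, 28 of 36 lignin genes (such as laccases and phenylalanine ammonia-lyases) were below WT in *Ljasn1-2* with a median of -0.141, and so were 21 of 23 genes of wall sugar supply (sucrose synthases and enzymes of UDP-sugars, median -0.134), while 16 of 29 tubulins (median -0.010) and 7 of 14 endoglucanases (median 0.005) were. Of 34 genes of wall acetylation, 19 were below WT (median -0.018), and both of 2 other arabinogalactan proteins were (median -0.240). None of these genes passed the threshold. The 22 laccases, enzymes that polymerize lignin in xylem and fibres, summed to 153.1 to 178.8 FPKM in shoots S of *Ljasn1-2* against 196.9 to 225.7 FPKM in WT, and their part in the lower fasciclin and xylan values was not tested. In roots, S against NS, lignin genes fell with the xylan genes: 21 fell and 5 rose among 42 in *Ljasn1-2* (median -0.800), and 20 fell and 4 rose among 40 in WT (median -0.755). Endoglucanases fell in 5 of 14 cases and rose in 1 in *Ljasn1-2*, and fell in 6 of 14 and rose in 1 in WT, whereas 3 of 29 tubulins rose and none fell in *Ljasn1-2* and 1 rose and 1 fell in WT.

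Likeness between genes of a family across the 24 libraries differed by family. The median Pearson r between members was 0.68 for COBRA genes, 0.51 for the interactive proteins, 0.22 for cellulose synthases, 0.19 for xylan-degrading genes, 0.21 for fasciclin genes, 0.43 for xylan synthesis genes and -0.15 for cellulose synthase-like genes, against 0.11 over all pairs of members. These values are descriptions over libraries that share 8 groups. Among the 3 pairs of CESA4, CESA7 and CESA8 (LotjaGi6g1v0320400) the lowest r was 0.97, and 0.96 for the deviations from the group means. For COBRA genes the deviations had a median r of 0.01. The members most like CESA8 were CESA7 (0.98), CESA4 (0.97), the xylan gene F8H (LotjaGi5g1v0148800, 0.95), GUX2 (0.94), GXM3 (0.91) and COBL4 (0.90). FLA11 (LotjaGi1g1v0691900) had r = 0.86 with CESA8 over the 24 libraries and -0.13 for the deviations from the group means. For cellulose synthases as a family the deviations had a median r of 0.72, and for interactive proteins 0.88, which includes the high root libraries of replicate 3.

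The aspartic proteases that share the xylanase inhibitor domain held the largest differences of all members. At2g35615 (LotjaGi3g1v0134800_LC, chromosome 3, 17183155 to 17194053, plus strand) had 2108, 1548 and 1603 FPKM in roots S of *Ljasn1-2* and 1627, 1849 and 1450.1 FPKM in roots S of WT, and at most 0.209 FPKM in any library of the other 6 groups. It accounted for most of the summed level of the proteases in roots S, 2447 to 2967 FPKM in *Ljasn1-2* and 2382 to 2784 FPKM in WT. Its profile was the most like that of CSLH1 LotjaGi3g1v0469100 among all pairs of members (r = 0.997), and both were at traces or 0 outside roots S. Genes named GIP2 went the other way. GIP2 (LotjaGi6g1v0297900) lies in a row of GIP genes on chromosome 6 (61522369 to 61560354), where near copies may share reads. It had 9.19, 12.6 and 12.4 FPKM in roots S against 120.4, 132 and 164 FPKM in roots NS of *Ljasn1-2* (-3.50, adjusted p = 1.43e-05), and 20.7, 35.4 and 38.4 against 125, 183 and 154 FPKM in WT (-2.29, adjusted p = 0.000854). In roots S it was lower in *Ljasn1-2* than in WT without overlap (-1.36, adjusted p = 0.489, 0.000675 with the replicate block, which called 1.6% of all genes). Its neighbour LotjaGi6g1v0298000 had 38.00, 42.6 and 43.3 FPKM in roots NS of *Ljasn1-2* against 72.2, 67.7 and 63.5 FPKM in WT (-0.70, adjusted p = 0.32, 0.00962 with the block). In both genes the *Ljasn1-2* libraries lay below all WT libraries. For the second, the interaction of genotype with tissue under NS conditions was called, as for 0.29% of all genes. With traces of at most 0.533 FPKM in shoots, the gene passed the filter through roots only. The interaction thus largely restates the difference in roots NS and is no separate support. The call was lost with a pseudocount of 0.1, quantile normalization, voom and the fit over all libraries.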

How the data were processed

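Total RNA of shoots and roots was sequenced from dUTP-stranded polyA libraries. The authors' notes name fastp, featureCounts 1.5.0-p3 and DESeq2 1.20.0, and the aligner is not given in the sources used here. The deposited table holds FPKM per gene, but values of 1 or more had lost their decimal point (384363 of 725832 values, 53.0%), so the deposited numbers are not FPKM as they stand. The point was restored from the rule that FPKM are whole reads over gene length and library factor, from agreement between replicates and from row order. No value failed, 51 genes of 30243 had another possible placement (0 of the genes described here), and on simulated data 0 of 384643 values were wrong. Restored depth was 37.5 to 66.8 M reads on genes per library, which limits precision by counting error only. The table's other columns, such as descriptions and positions, are the authors' annotation.

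Restored values were tested as log2(FPKM + 1) with limma-trend (limma 3.58.1, R 4.3.3) on the libraries of each comparison, leaving out genes that did not reach 1 FPKM in 3 or more libraries, with Benjamini-Hochberg adjustment over all genes tested and a threshold of 0.05. Because the reads were restored from FPKM, no count model but voom was used. There were 12 comparisons (genotype, growth condition, tissue) and 6 interactions. On simulated data for genotype in shoots S, 17% of 1.5-fold and 100% of 3-fold changes were recovered. For growth condition in WT roots these shares were 28% and 100%. Each library is a pool of 10 plants, and the study's methods describe the replicates of a group as biological and independent.

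Alternatives were a pseudocount of 0.1, no filter, a filter of 5 FPKM, quantile normalization, voom on the restored reads, a fit over all 24 libraries, the replicate number as a block, and each library left out. Leaving out libraries for interactions and for family counts was chosen after seeing the data. Replicate numbers come from the sample titles. Same-numbered libraries deviated together in all pairs in genotype shoots NS (mean r = 0.54), roots S (0.66) and roots NS (0.71), and in growth condition roots *Ljasn1-2* (0.59), shoots WT (0.53) and roots WT (0.65). They did not in genotype shoots S, growth condition shoots *Ljasn1-2* or any tissue comparison.

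The members and gene lists were chosen with earlier results of these data known. Genes were named by level (cellulose synthases, COBRA genes, highest members of each family), as the up to 10 called members with the largest and 10 with the smallest log2 fold change and no overlap in each comparison, as the 5 smallest p-values in each direction of each genotype comparison together with members called there with or without the block, as members of the study's lists of genotype differences, and as the 5 smallest p-values among called members of each interaction. GUX2, GUX3, F8H and IRX7 LotjaGi3g1v0168500 were added after their values were seen. No sequences are shown. Analyses used Python 3.11.15 with numpy 2.4.6, pandas 2.3.3 and scipy 1.17.1, and figures matplotlib 3.10.9.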

Additional observations from a re-analysis of the deposited data

Results flagged for a closer look

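In 10 cases the difference between S and NS plants was unlike in shoots and roots, by the test of that difference itself (the 5 smallest p-values in each genotype, adjusted p by limma). The value is the S over NS log2 fold change in shoots minus that in roots. At2g35615 (LotjaGi3g1v0134800_LC), the protease gene with high levels in roots S alone, had -10.65 in *Ljasn1-2* (adjusted p = 7.11e-12) and -10.51 in WT (adjusted p = 3.23e-12). CSLH1 (LotjaGi3g1v0469100), listed at 0 in shoots, had -3.46 (adjusted p = 8.21e-08) and -3.22 (adjusted p = 1.93e-08), and CSLE1 (LotjaGi6g1v0141800) had -1.71 (adjusted p = 3.94e-05) and -2.01 (adjusted p = 0.000139). At2g35615 and CSLH1 were at traces or 0 in shoots and passed the filter through roots S only. Their values restate the difference between roots S and roots NS and are no separate result. In *Ljasn1-2*, FLA10 (LotjaGi1g1v0464000) had -1.83 (adjusted p = 1.08e-05) and the aspartic protease AED3 (LotjaGi1g1v0348000) -1.75 (adjusted p = 5.81e-05). In WT, GIP2 (LotjaGi6g1v0297800) had 1.72 (adjusted p = 5.62e-05) and COBL7 (LotjaGi6g1v0255200) 1.21 (adjusted p = 0.000157), both lower in roots S than in roots NS. COBL7 did not reach 1 FPKM in 3 shoot libraries and passed the filter through roots. The value of COBL7 largely restates its root difference and is no separate result. CSLE1 was low in shoots too, so its value rests mostly on roots.

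For GIP2 (LotjaGi6g1v0298000) the difference of *Ljasn1-2* from WT under NS conditions was unlike in shoots and roots, with a log2 value of 0.89 for shoots minus roots (adjusted p = 0.041, limma). The gene was under 1 FPKM in the shoot libraries, so the value largely restates the genotype difference in roots NS. The call did not hold with a pseudocount of 0.1, quantile normalization, voom or the fit over all libraries.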

How the results depend on the processing

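Counts here are of all 157 members unless cell wall genes are named. The replicate block also raised the calls over all genes, in genotype roots NS from 0.0433% to 4.47%. Counts for which no share over all genes is given are not read as results about the members. No value changed direction with a call. The replicate block called 3 members in genotype shoots S (MUCI21 LotjaGi2g1v0298300, FLA11 LotjaGi2g1v0361800_LC and FLA11 LotjaGi2g1v0361700, where the numbers do not pair), 1 in shoots NS, 1 in roots S and 6 in roots NS, each against 0 without it. It called 70 in growth condition roots *Ljasn1-2* against 41, 30 in shoots WT against 13 and 70 in roots WT against 37, and 2 (GUX2, adjusted p = 0.0275, and CSLH1 LotjaGi3g1v0469200, 0.0158) and 1 in the interactions of genotype with condition in shoots and roots, against 0. In growth condition shoots *Ljasn1-2*, where the numbers do not pair, it called 17 cell wall genes (3 higher, 14 lower) against 10. The fit over all 24 libraries called 1 member in genotype shoots NS, 1 in roots S and 2 in roots NS, and 56 in growth condition roots WT. The 1 call in the interaction of genotype with tissue under NS conditions was 0 with a pseudocount of 0.1, quantile normalization, voom and the fit over all libraries. With libraries left out in turn, calls ranged from 0 to 3 in genotype shoots S and were 0 in the other genotype comparisons. They ranged from 10 to 26 in growth condition shoots *Ljasn1-2* (23 with all libraries), 20 to 43 in roots *Ljasn1-2*, 6 to 15 in shoots WT, 21 to 55 in roots WT, 54 to 64, 43 to 57, 50 to 65 and 42 to 58 in the tissue comparisons of S *Ljasn1-2*, NS *Ljasn1-2*, S WT and NS WT, 0 to 1 in the interaction of genotype with tissue under NS conditions, and 28 to 37 in *Ljasn1-2* and 27 to 50 in WT for growth condition with tissue. The cause of these changes was not tested, beyond the smaller number of libraries.

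For cell wall genes, growth condition roots WT gave 35 calls with the fit over all libraries and 15 with the 5 FPKM filter, against 21, and growth condition shoots WT gave 3 with the fit over all libraries, against 6. Of the 204 named gene results, 11 gained a call with the block and none lost one, and 202 kept their side with a pseudocount of 0.1, 199 without the filter, 203 with quantile normalization and 202 with voom. The fit over all libraries kept 194, with 6 calls lost and 4 gained, and leaving out libraries kept 1070 of their results, with 58 calls lost and 3 gained. Quantile normalization moved the median of all genes by under 0.1 on the log2 scale. Below 1 FPKM a fold change mainly reflects the pseudocount, and with 3 libraries per group 1.5-fold changes of single genes were mostly not detectable.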

Other observations

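The most abundant fasciclin gene of roots was not that of shoots. Of the 21 fasciclin genes that passed the filter, 15 had their highest group mean in roots and 6 in shoots. FLA9 (LotjaGi3g1v0448300), the most abundant fasciclin gene in roots with a mean of 115 FPKM, was lower in shoots than in roots in each tissue comparison, whereas FLA11 (LotjaGi1g1v0691900), the most abundant in shoots with a mean of 132 FPKM, was higher in shoots in each. Each gene was chosen by its level in the tissue where it is higher, so these directions follow in part from the choice.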
